A study of Mus musculus with 2 samples.

Results

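The aminoacyl-tRNA synthetases, the enzymes that load each transfer RNA (tRNA) with its amino acid, were examined in the cerebral cortex of juvenile mice. The set was made of 20 genes of the cytosolic enzymes and 15 genes of the mitochondrial enzymes, found by gene symbol in the annotation of an Affymetrix mouse expression array, under the older symbols or with a trailing 1. Of these 35 genes, 34 were on the array with a probe set assigned to them alone, among 18193 named genes in all, and together they had 71 probe sets. Dars, the cytosolic aspartyl enzyme, was the missing member. Each of 2 arrays received cortical RNA mixed in equal parts from 3 male mice aged 4 weeks on a mixed 129/B6 background. One pool was wild-type. The other was titled as a knockout of Gnmt, which encodes glycine N-methyltransferase, an enzyme that uses S-adenosylmethionine to methylate glycine. The genotype entry of that sample reads wild-type, so it is called the knockout-titled pool here, and every direction below rests on its title.

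Synthetases fall into 2 classes with unrelated catalytic folds, and both classes activate an amino acid with ATP before passing it to the tRNA. Most amino acids have separate nuclear genes for the cytosolic and the mitochondrial enzyme, while Gars (glycine) and Kars (lysine) each supply both compartments from 1 gene. Several cytosolic enzymes sit in a multisynthetase complex held together by scaffold proteins, and many cytosolic synthetase genes are known targets of ATF4, the transcription factor of the amino acid response. Inherited changes in several cytosolic enzymes cause peripheral neuropathy, and changes in the mitochondrial ones cause disorders of brain white matter or of early development.

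The values are linear signals per probe set, scaled to a common mean in both arrays before deposit. Median signals over all probe sets were 92.0 (wild-type) and 124.9 units (knockout-titled). A floor at the 40th percentile of all signals, 64.2 units, marked what was measured, and 12251 genes reached it on both arrays. The ratio of knockout-titled over wild-type signal is given on the log2 scale, centred on its median over all measured probe sets, and a gene is represented by its brightest measured probe set. There was 1 array per group and so no replicate: no difference was tested, and each ratio describes these 2 pools alone. The only error that could be estimated was that between probe sets of 1 gene, with an SD of 0.58 over 5375 genes, or 1.49-fold, which leaves out the spread between mice. The single Gnmt probe set was below the floor in both pools, at 10 and 21.5 units, and did not check the titles. In whole tissue, fewer cells of a type and less RNA per cell cannot be told apart.

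The cytosolic synthetase genes were mostly lower in the knockout-titled pool and the mitochondrial ones were spread about 0. Of 19 measured cytosolic genes, 16 had a ratio below 0, with a median of -0.30 and a range from -1.12 to 0.50. Of 15 mitochondrial genes, 5 had a ratio below 0, with a range from -0.58 to 0.86 and a median of 0.09, which turned negative with quantile normalization (-0.08), without a floor (-0.02) and by second brightest probe sets (-0.26). Over all measured genes the median was -0.06, and 54.2% of ratios were below 0. The cytosolic median stayed below that of all genes under each of the 10 other settings tried, between -0.41 and -0.19. These settings reused the same arrays and were not 10 separate checks. Leaving out the centring moved every ratio alike and could not change this order. The other floors and no floor moved all 19 cytosolic ratios by a common amount, and leaving out Gars and Kars changed membership alone. Only quantile normalization, loess and other choices of probe set changed cytosolic ratios relative to each other. Whether the compartments differ was not tested, since that needs replicate arrays. The gap between the medians was -0.39, and it was only -0.11 with quantile normalization.

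**Figure D1:**
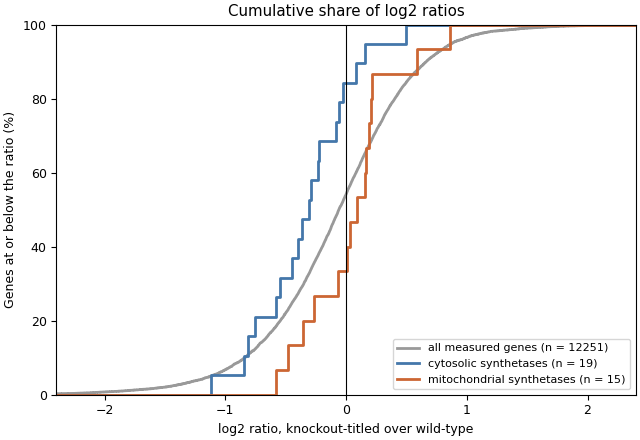
Cumulative share (percent of genes, vertical axis) of the log2 ratio of knockout-titled over wild-type signal (horizontal axis) for all 12251 measured genes, 19 cytosolic and 15 mitochondrial synthetase genes. The cytosolic curve lies to the left of that of all genes over most of its course and reaches 84.2% at a ratio of 0, where the mitochondrial curve is at 33.3%.

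At a ratio of 1.5-fold, 5 of 19 cytosolic genes were lower in the knockout-titled pool (26.3%) and 0 were higher, and the other 14 lay within 1.5-fold. Over all measured genes, 18.3% passed this line downwards and 12.5% upwards. Of the 15 mitochondrial genes 0 were lower and 2 were higher (13.3%). The share of higher mitochondrial genes was thus near that of all genes, and the cytosolic share of lower genes was above that of all genes by less than 2 genes. Most cytosolic genes were a little lower in the knockout-titled pool and few were much lower.

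Promoters of the cytosolic genes held the core of an ATF4 site more often than promoters at large, and the sequences of those that held it are shown for this reason. RefSeq promoters (GRCm38.p6, from 250 bases before to 50 bases after a gene's start) were matched for 25 of the 34 genes, 12 cytosolic and 13 mitochondrial. Cars, Hars, Lars, Nars, Rars, Vars, Wars, Hars2 and Pars2 had no entry. The motif TGATGNAA, the core of the composite site bound by ATF4 with C/EBP factors, was searched on both strands. It was present in 5 of the 12 cytosolic promoters (41.7%), in 0 of the 13 mitochondrial ones and in 3.97% of all 32851 promoters of the same length. The E-box CACGTG, which reads the same on both strands and is bound by MYC among other factors, was present in 4 of 12 (33.3%), 1 of 13 (7.69%) and 7.15%. The motif matches are descriptions of letters and not measured binding. In the lines below, capitals mark the matches, each sequence is 5′ to 3′ on the strand of the gene, and a match on the other strand reads as the reverse complement. The first line is a 100-base stretch upstream of Aars with both motifs. The others are 30-base windows around TGATGNAA, and Asns (asparagine synthetase) and Slc7a11 (cystine transporter) are added as known ATF4 targets.
Aars (chr8:111033682-111033781, plus strand): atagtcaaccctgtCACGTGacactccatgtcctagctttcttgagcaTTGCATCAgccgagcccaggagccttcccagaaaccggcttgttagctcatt
Aars, second match (chr8:111033840-111033869, plus strand): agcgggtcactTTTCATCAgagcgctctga
Gars (chr6:55037960-55037989, plus strand): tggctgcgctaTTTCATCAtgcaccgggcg
Iars (chr13:49682126-49682155, plus strand): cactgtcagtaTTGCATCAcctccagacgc
Tars (chr15:11399655-11399684, minus strand): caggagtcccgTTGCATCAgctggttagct
Yars (chr4:129189895-129189924, plus strand): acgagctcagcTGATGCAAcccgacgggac
Asns (chr6:7693214-7693243, minus strand): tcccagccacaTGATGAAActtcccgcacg
Slc7a11 (chr3:50443661-50443690, minus strand): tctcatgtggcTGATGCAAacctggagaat

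The genes with a match did not share 1 ratio. Their ratios were -0.02 for Aars, -0.29 for Gars, -0.23 for Iars, -0.40 for Tars and -0.85 for Yars. The 7 cytosolic genes with a promoter entry and no match (Kars, Eprs, Sars, Farsb, Mars, Farsa and Qars) ran from -1.12 to 0.50, which covers that range. Asns had -0.44, and Slc7a11, with a pair of matches, had 2.12.

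The lowest ratio in the set belonged to Kars, the lysyl enzyme of cytosol and mitochondria, a class II enzyme of the complex. Its 1 probe set went from 1516 units (wild-type) to 702 (knockout-titled), 2.18-fold lower with a ratio of -1.12. Among the 34 genes of the set Kars alone was past 2-fold by brightest probe set, as were 6.74% of all genes in that direction, and 4.92% of genes had a ratio as low. The ratio is larger than the probe set error of 0.58 and rests on a single probe set.

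Yars, the tyrosyl enzyme, followed with 1518 and 849 units, 1.80-fold lower (ratio -0.85), also from 1 probe set. Cars, the cysteinyl enzyme, had 441 and 253 units, 1.75-fold lower (-0.81), and its other probe set was below the floor in both pools. Eprs, a fused enzyme that loads both glutamate and proline, had 931 and 555 units, 1.69-fold lower (-0.76). Eprs was the best covered of the lower genes: its 3 measured probe sets gave -0.83, -0.76 and -0.30, all below 0. Rars, the arginyl enzyme of the complex, had 1414 and 949.8 units and a ratio of -0.59, which put it at the 1.5-fold line, and it fell inside that line without centring, with quantile normalization, with loess and with the higher floor. Kars, Yars, Cars and Eprs were past 1.5-fold under each setting that gave them a value.

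**Figure D2:**
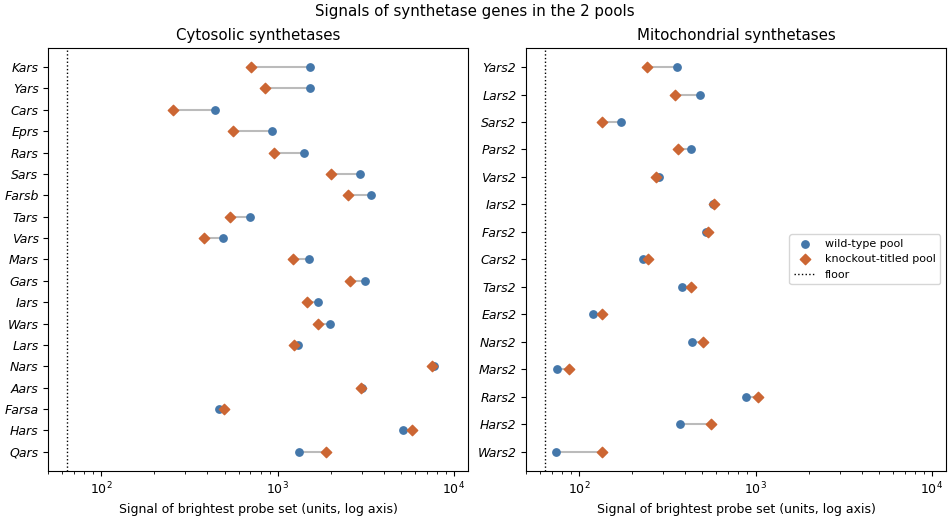
Signal of the brightest measured probe set (units, log axis) of each synthetase gene in the wild-type pool (circles) and the knockout-titled pool (diamonds), ordered by ratio, with the floor of 64.2 units dotted. In the upper part of the cytosolic panel, from Kars with 1516 and 702 units down, the diamonds lie to the left of the circles, and signals of different probe sets do not rank RNA levels between genes.

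A middle group of cytosolic genes was lower by less than 1.5-fold. Sars, the seryl enzyme, had 2921 and 2016 units (ratio -0.55), with its second probe set at -0.36. Farsb, the beta subunit of the phenylalanyl enzyme, had 3369 and 2495 units (-0.44), with 3 probe sets from -0.44 to -0.06. Tars (threonine) had 699.7 and 536 units (-0.40) and Vars (valine) 488 and 381 (-0.37), both from 1 probe set. These values all lay within the probe set error of 0.58.

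Mars, the methionyl enzyme that charges both the initiator and the elongator tRNA, had 1496 and 1221 units (ratio -0.30). Gars, mutated in an inherited neuropathy, had 3121 and 2570.2 units (-0.29). Iars (isoleucine) had 1699 and 1461 units (-0.23), but its second probe set gave -0.83, so its size depends on the probe set. Wars, the tryptophanyl enzyme, which interferon induces, had 1971 and 1702 units (-0.22), and its 4 probe sets agreed closely, from -0.42 to -0.15. Wars and Qars were the only synthetases with 4 measured probe sets, and those of Wars were all below 0.

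The remaining cytosolic genes were near 0 or above it. Lars, the leucyl enzyme and a leucine sensor of the growth pathway mTORC1, had 1303 and 1242 units (ratio -0.08). Nars (asparagine) had 7751 and 7516 units (-0.06) and Aars (alanine) 2991 and 2967 (-0.02), with second probe sets at -0.53 and -0.46. The ratios of Lars, Nars and Aars turned positive with quantile normalization, and those of Nars and Aars also with loess. Farsa, the alpha subunit of the phenylalanyl enzyme, had 465 and 495 units (0.08), so the ratios of its 2 subunit genes differed by less than the probe set error. Hars (histidine) had 5148 and 5773 units (0.15), against -0.35 for its second probe set.

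Qars, the glutaminyl enzyme, could not be given a direction. Its 4 probe sets gave ratios of 0.50, -0.90, -0.31 and 1.35, the widest spread in the set. The 2 brightest, both of a type that can bind several transcripts, went from 1319 to 1879 and from 1548 to 833 units.

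**Figure D3:**
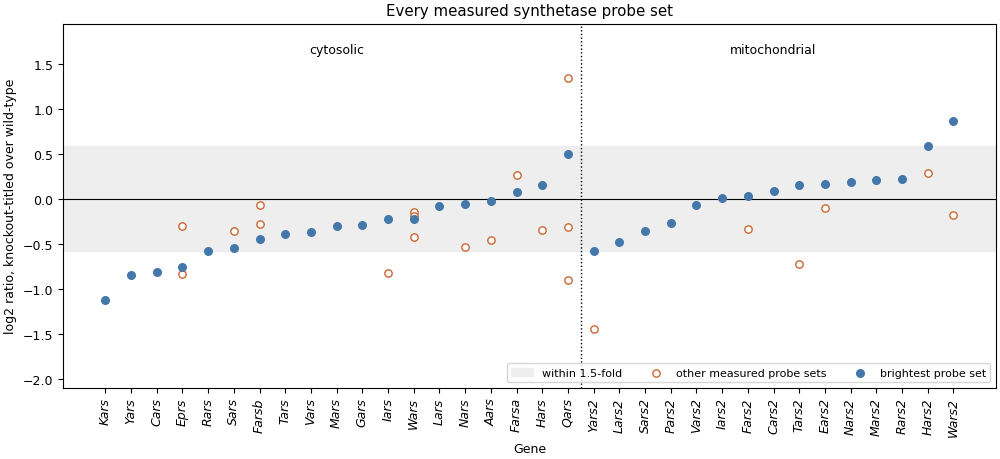
Log2 ratio of knockout-titled over wild-type signal (vertical axis) for each of the 56 synthetase probe sets that reached the floor on both arrays, by gene; filled points are the brightest probe set of a gene and the grey band marks 1.5-fold. Of the 35 cytosolic probe sets 30 lie below 0, against 10881 of 20967 over all genes, and Qars spans from -0.90 to 1.35.

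Counting probe sets in place of genes, which counts the brightest ones again, left the cytosolic pattern in place. Of 35 measured cytosolic probe sets 30 were below 0, with a median of -0.31. Of all 20967 measured probe sets with 1 gene, 10881 were below 0, with a median of -0.03. At 1.5-fold, 22.9% of the cytosolic probe sets were lower and 2.86% higher, against 18.1% and 16.5% of all. Of the 10 cytosolic genes with at least 2 measured probe sets, 7 had all of them below 0, 1 (Farsa) had all above 0 and 2 (Hars and Qars) were mixed. Among the 21 measured mitochondrial probe sets, 10 were below 0 and the median was 0.01. Over the 16 members with at least 2 measured probe sets, the probe set error had an SD of 0.33 (1.26-fold), against 0.58 for all genes. Both SDs are taken about the mean difference between brightest and second probe set, so a shift shared by the genes of a set is left out. Whether the probe sets of the members agree better than those of other genes was not tested. By second brightest probe sets the medians were -0.41 (10 cytosolic genes) and -0.26 (6 mitochondrial genes), against -0.30 and 0.09 by the brightest of all members.

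Some dim probe sets went against the brighter ones of the same genes, and others went with them. In 4 cytosolic probe sets (1 each of Eprs and Farsb and 2 of Farsa) the signal reached the floor in the knockout-titled pool alone. For Eprs it was 6.6 and 103.8 units, at least 1.60-fold higher, against the 3 brighter probe sets below 0. For Farsa it was 27.2 and 185 units in 1 of them, at least 2.86-fold higher, the direction of its brighter probe sets (0.08 and 0.27). In the mitochondrial genes 5 probe sets (2 of Cars2 and 1 each of Iars2, Lars2 and Vars2) were above the floor only in the wild-type pool, and 1 of Ears2 only in the other. For Lars2 and Vars2 the lower signal in the knockout-titled pool was the direction of the brighter probe set (-0.48 and -0.06). The brighter probe sets of Ears2 were mixed (0.17 and -0.11). Over all named probe sets, 7.48% were measured in the knockout-titled pool only and 4.07% in the wild-type pool only, against 7.04% each way in the synthetases. The synthetase shares pool 2 compartments that went opposite ways. The 4 of 40 cytosolic probe sets were all on the knockout-titled side, and 5 of 31 mitochondrial ones were on the wild-type side. These dim probe sets thus went against the signs of the compartment medians by brightest probe set.

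Cytosolic genes inside and outside the multisynthetase complex had close medians. For the 7 measured members of the complex (Eprs, Iars, Kars, Lars, Mars, Qars and Rars) the median was -0.30, and 3 of 7 were past 1.5-fold downwards (42.9%). For the 12 outside it the median was -0.33, and 2 of 12 were past that line (16.7%), against 18.3% of all genes. The share outside the complex was thus near that of all genes, and the one inside it was above by less than 2 genes. Both enzyme classes had like medians too, -0.30 for 9 class I genes and -0.29 for 9 class II genes, leaving out Eprs, which holds both. Among the scaffolds, Aimp1, which also yields a cytokine, had 1726 and 471 units, 3.70-fold lower with a ratio of -1.89, lower than any synthetase. Aimp2 had 1251 and 991 units (-0.35, its other probe set -0.31) and Eef1e1 1336 and 1145 (-0.23). All 3 scaffold genes were below 0, and the value of Aimp1 rests on 1 probe set.

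The mitochondrial synthetase genes with the highest ratios were Wars2 and Hars2. Wars2, the tryptophanyl enzyme, had 73.5 and 134.5 units, 1.82-fold higher (ratio 0.86), close to the floor, and its other probe set gave -0.18. Hars2, the histidyl enzyme, had 371 and 562 units, at the line of 1.5-fold (0.59), with 0.29 in its second probe set. Quantile normalization brought Wars2 to 0.51, inside 1.5-fold. Hars2 is the only mitochondrial gene with at least 2 measured probe sets that were all above 0.

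At the low end, Yars2, the tyrosyl enzyme, had 358 and 242 units (ratio -0.58), just inside 1.5-fold, while its other probe set gave 370.2 and 137 units and -1.45. Yars2 was thus lower in both probe sets, like the cytosolic Yars at -0.85. Lars2 (leucine) had 484 and 349.9 units (-0.48), Sars2 (serine) 172 and 135 (-0.36) and Pars2 (proline) 431 and 361 (-0.27), each from 1 measured probe set. Lars2, Sars2 and Pars2 lay within the probe set error of 0.58.

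The other mitochondrial genes had ratios from -0.06 to 0.22. Rars2, the arginyl enzyme, mutated in a disorder of the pons and cerebellum, had 881 and 1032 units (ratio 0.22). Mars2 (methionine) had 75.1 and 87.6 units (0.21), Nars2 (asparagine) 439 and 504 (0.19) and Ears2 (glutamate) 119.7 and 135.5 (0.17). Tars2 (threonine) had 384 and 431 units (0.16), but its second probe set gave -0.72. The ratios of Mars2 and Ears2 turned negative with quantile normalization, as did that of Cars2.

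Cars2 (cysteine) had 229 and 245 units (ratio 0.09), Fars2 (phenylalanine) 520.3 and 536 (0.03) and Iars2 (isoleucine) 576 and 584 (0.01). Vars2 (valine) had 283 and 273 units (-0.06). These 4 ratios were the closest to 0 among the mitochondrial genes.

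Set side by side by amino acid, the mitochondrial gene had the higher ratio in 12 of 14 pairs, with a median difference of 0.37. In the pairs Fars2 was set against both Farsa and Farsb. Gars and Kars, which serve both compartments, were left out, as were Eprs, Ears2, Pars2, Qars and Aars, which have no partner of the same single amino acid in the set. The widest gaps were 1.08 for tryptophan (Wars -0.22, Wars2 0.86) and 0.90 for cysteine (Cars -0.81, Cars2 0.09). Both depend on the probe set of the mitochondrial gene. The other probe set of Wars2 gave -0.18, near its Wars partner. The dimmer probe sets of Cars2, above the floor only in the wild-type pool, were at least 2.17-fold and 1.38-fold lower in the knockout-titled pool. The exceptions were leucine (Lars -0.08, Lars2 -0.48) and the alpha subunit for phenylalanine, by 0.05. Alanine would be a further exception, with Aars at -0.02 and Aars2, which is outside the set, at -0.67. With quantile normalization 11 of 14 pairs went this way, with a median difference of 0.17, and by second brightest probe sets only 1 of 4 did.

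Mean signal differed between the compartments. With all measured genes in 4 equal bins of mean signal, most cytosolic genes (15 of 19) were in the upper 2 bins and most mitochondrial genes (14 of 15) in the lower 2. The median ratio of all genes was -0.02, -0.09, -0.05 and -0.08 from the lowest to the highest bin. In the upper 3 bins, where they lay, the cytosolic genes had medians of -0.38, -0.45 and -0.22. By gene span, 8 cytosolic genes each lay in the second and the third of 4 bins, with medians of -0.34 and -0.26, against -0.08 and -0.02 for all genes there. The 1 cytosolic gene in the bin of shortest genes (Qars) had 0.50 against -0.15, and the 2 in the bin of longest genes had a median of -0.60 against 0.03. The cytosolic medians were thus below those of all genes in the same bin of signal.

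Genes of the neighbouring steps were mixed. Other aminoacylation and proofreading steps had 12 measured genes, 5 of them at least 1.5-fold lower and 2 higher (41.7% and 16.7%, against 18.3% and 12.5% of all genes), and a median of -0.50. Tarsl2, a paralog of the cytosolic threonyl enzyme, had 956 and 467 units (ratio -1.04), and Pstk, a kinase of the selenocysteine tRNA pathway, 544 and 299 (-0.88, its other probe set 1.21). Qrsl1, a subunit of the amidotransferase that makes mitochondrial glutaminyl-tRNA in place of a synthetase, had 1115 and 2305 units (1.04, its other probe set 0.12), and Sepsecs, the last enzyme of selenocysteine synthesis, 199 and 392 (0.96). Aars2, the mitochondrial alanyl enzyme and no member of the set, had 295 and 186 units (-0.67), a value named after it was seen.

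Elongation factors, which carry the charged tRNA to the ribosome and move it along, mostly lay within 1.5-fold. Eef1b2, an exchange factor subunit, was the exception with 6659 and 2689 units, 2.50-fold lower (ratio -1.32). The carriers Eef1a1 and Eef1a2 had ratios of -0.18 and -0.23, the exchange subunit Eef1d 0.14 and the translocase Eef2 0.31. Of the mitochondrial factors, Tufm had -0.56 (its other probe set 0.23) and Gfm1 -0.37 (its other probe set -0.12). Gfm2 had 0.24 (its other probe set 0.68, past 1.5-fold) and Tsfm 0.41. The medians of these lists were -0.18 and -0.06.

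Among 36 measured genes of tRNA processing and modification, 7 were at least 1.5-fold lower and 4 higher, with a median of -0.14. Trnt1, which completes the 3′ end that receives the amino acid, had 963 and 381 units, 2.55-fold lower (ratio -1.35), with its other probe set at -0.88. Cdkal1, which modifies the lysine tRNA, had 276 and 130.0 units (-1.10). At the other end, Alkbh8, a methyltransferase of wobble uridines, had 163 and 587 units, 3.58-fold higher (1.84), and Adat2, a subunit of the deaminase of wobble adenosines, 176 and 526 units (1.57). The shares of lower and higher genes, 19.4% and 11.1%, were near the 18.3% and 12.5% of all genes.

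The ATF4 response genes as a list did not have a median below 0, unlike the cytosolic synthetases. The list also held the upstream kinase genes Eif2ak4 (ratio 0.185) and Eif2ak3 (0.368). Of 26 measured genes 5 were at least 1.5-fold lower and 2 higher, and the median was 0.16. These shares were 19.2% and 7.69%, against 18.3% and 12.5% of all genes, so the share of lower genes was near that of all genes. The stress factor gene Ddit3 had 776 and 357 units (ratio -1.13) and Cebpb 262 and 153 (-0.79, its other probe set 0.02). Slc7a11, whose promoter is printed above, had 204 and 894 units, 4.35-fold higher (2.12, its other probe set 1.15), and Cebpg, a partner of ATF4, 731 and 1372 (0.90, with 3 probe sets from 0.83 to 0.97). Atf4 itself had 3246 and 2357 units (-0.47, its other probe set 0.58). Asns had 4197 and 3122 units (-0.44, its other probe set -0.75).

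**Figure D4:**
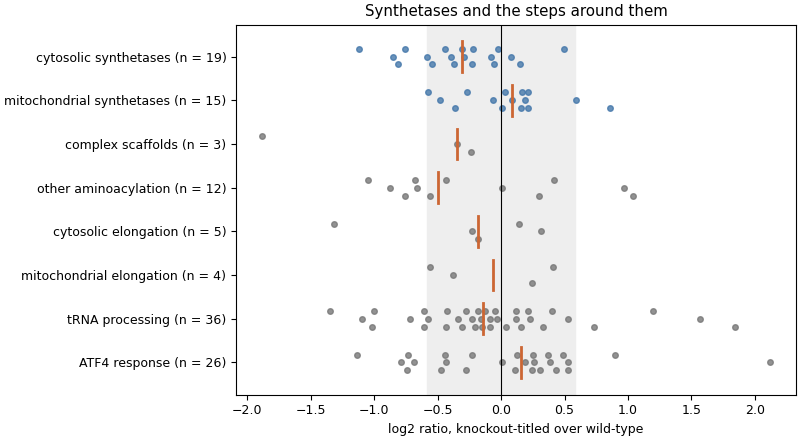
Log2 ratio of knockout-titled over wild-type signal (horizontal axis) of each measured gene, 1 point a gene, in the synthetase groups and in the lists around them; the vertical bars are medians and the grey band marks 1.5-fold. The cytosolic median is at -0.30, the mitochondrial one at 0.09 and that of the ATF4 response genes at 0.16.

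Markers of other cells also differed between the pools. Cortical neuron markers such as Snap25 and Slc17a7 were above the floor in both pools, and the 11 on the array had a median of -0.01, from -1.78 for Nefl to 1.06 for Tbr1. Of 11 pituitary markers on the array, 8 reached the floor in the wild-type pool and 4 in the other, against 56.9% and 63.1% of all probe sets. Their summed signal was 44344 and 4949 units, with measured ratios from -6.87 for Gh to -0.31 for Tshb. Most of the sum in the knockout-titled pool was Chgb, with 12859 and 4139 units. Prl had 2351 and 9.7 units and Cga 2362 and 6.5, both below the floor in the knockout-titled pool. Microglia markers past 1.5-fold numbered 7 of 11 downwards (63.6%, against 18.3% of all genes) and 1 upwards (9.09%, against 12.5%), with sums of 16739 and 13694 units over 12 markers, from -2.04 for Fcrls to 1.97 for Cx3cr1. Of 9 astrocyte markers 4 were lower by brightest probe set (44.4%, against 18.3%) and 0 higher (against 12.5%). Their sums were 72563 and 67929 units, from S100b at -1.23 to Slc1a2 at 0.15. Other measured probe sets ran up to 3.88 for Slc1a2, 1.66 for Gja1, 1.60 for Aqp4 and 0.83 for Sox9. All those of Gfap and S100b were below 0.

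The summed signal of the 19 cytosolic synthetase genes was 40561 and 35564 units and that of the 15 mitochondrial genes 5395 and 5613. Oligodendrocyte markers had sums of 76662 and 67219 units, from Mobp at -0.76 to Cldn11 at 0.24. Of these 9, 1 was at least 1.5-fold lower (11.1%, against 18.3% of all genes) and 0 were higher (against 12.5%). Endothelial markers had sums of 4848 and 5219 units, from Tek at -0.31 to Flt1 at 0.53. Of 6 measured, 0 were past 1.5-fold, against 18.3% of all genes downwards and 12.5% upwards. No marker was at 0 on either array, but some lay below the floor. Among them were the endothelial Pecam1 in both pools (40.2 and 20.0 units) and the microglial Trem2 in the knockout-titled pool (13.1 units). The part of these cell types in the synthetase ratios was not tested.

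**Figure D5:**
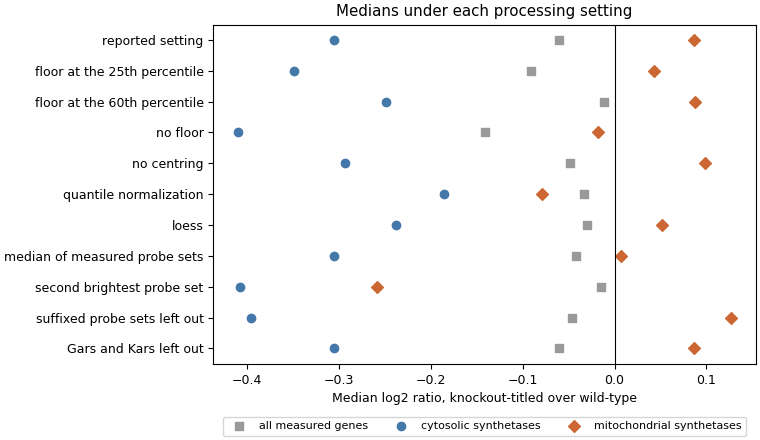
Median log2 ratio of knockout-titled over wild-type signal (horizontal axis) of all measured genes (squares), cytosolic (circles) and mitochondrial synthetases (diamonds) under the reported setting and 10 others. The circles stay left of the squares in each row, from -0.41 to -0.19, while the diamonds lie on either side of 0, from -0.26 to 0.13.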

How the data were processed

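The authors hybridised biotin-labelled cRNA from Trizol-extracted total RNA, per the labels' protocols, and GCOS is named in the submitters' processing notes. The deposited values are linear intensities, 1 per probe set and array, by a signal algorithm that was not given in the sources used here. The mean after trimming 2% at either end was 500 on both arrays.

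Of 45101 probe sets, 64 were controls. The platform annotation gave 34945 probe sets 1 gene symbol, 932 several and 9160 none; 34741 took their current RefSeq symbol. Log2 ratios were centred by subtracting 0.01. A gene took its brightest probe set above the floor on both arrays. Where 1 array was below the floor, the bound uses the floor. The members, gene lists and motifs were chosen with earlier results of these data known. All members were described; of other lists, the 2 highest and 2 lowest ratios (all genes in lists of up to 6), and of marker lists the highest and lowest. Asns, Atf4, Aars2, Chgb, Prl, Cga, Eif2ak3 and Eif2ak4 were named after their values were seen. The sequence of the array's probes was not used. The calculation was tested on simulated data. Alternatives covered floor, scaling, choice of probe set and membership. Python 3.11.15, numpy 2.4.6, pandas 2.3.3 and statsmodels 0.14.6 were used.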

Additional observations from a re-analysis of the deposited data

How the results depend on the processing

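No paired analysis was possible because each group had 1 array. Precision is limited by the number of arrays, and signals near the floor, such as those of Wars2 and Mars2, are the least certain. The cytosolic median was -0.41 without a floor, -0.19 with quantile normalization and -0.41 by second brightest probe sets, which 10 cytosolic and 6 mitochondrial genes had. The mitochondrial median under these settings was -0.018, -0.079 and -0.26. Cytosolic genes at least 1.5-fold lower numbered 3 by second brightest probe sets, and 1 was higher with quantile normalization or with suffixed probe sets left out. Mitochondrial genes at least 1.5-fold higher numbered 1 with either other floor, without a floor, with quantile normalization and without suffixed probe sets, and 0 by medians or second brightest probe sets. Those at least 1.5-fold lower numbered 1 with the lower floor, without a floor and by medians, and 2 with quantile normalization and by second brightest probe sets. Among single genes past 1.5-fold, Wars2 alone changed sign, to -0.18 by its second brightest probe set. Kars, Yars, Cars and Rars had 1 measured probe set each, so that setting could not change theirs. The cause of these shifts was not tested. Leaving out Gars and Kars kept the cytosolic median at -0.30 with 4 genes lower.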

Other observations

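Some synthetase genes start next to a gene read in the opposite direction, and the ratios of such neighbours could be set beside theirs. Among RefSeq promoters, 6 of the 25 members with an entry had such a neighbour with a start less than 1000 bases away. Kars and Terf2ip, which encodes a telomere protein, start 5 bases apart, and both were lower in the knockout-titled pool. Terf2ip had 669.5 and 284 units (ratio -1.25), with a second probe set at -0.25, against -1.12 for Kars. The 30 bases across both starts (GRCm38.p6 chr8:112011343-112011372) are shown on the strand of Kars, with the first base of Terf2ip, which is read leftwards, and then that of Kars in capitals.
Kars and Terf2ip: ccgccctctttccCggaaGaggcaggactt

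The other pairs were mixed. Yars, at -0.85, starts 324 bases from S100pbp, which had 583 and 957 units and a ratio of 0.70. Rars2 (0.22) starts 15 bases from Orc3, a gene of the origin recognition complex, which had -0.45. Fars2 (0.03) starts 286 bases from Lyrm4, a gene of iron-sulfur cluster assembly, which had 1324 and 658 units and -1.02. Ears2 (0.17) lies 112 bases from Ubfd1, whose 3 probe sets ran from -1.80 to 0.96, and Sars2 (-0.36) lies 147 bases from Mrps12, a mitochondrial ribosomal protein gene, at -0.16, both below 0 and closer to each other than the probe set error. With 6 pairs and 1 array per group no relation was tested.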
